A study of Mus musculus with 17 samples.

Results

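Fatty acid oxidation was followed through 35 genes of the mitochondrial and peroxisomal pathways, chosen by gene symbol. Of these, 34 had at least 1 annotated probe, with 66 probes in all, and all 34 were measured, meaning that a probe had a detection p-value below 0.05 on at least 2 arrays. They are 34 of the 17166 genes measured. The remaining gene, Hadha, which encodes the alpha subunit of the mitochondrial trifunctional protein, was not analysed here.

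The tissue was epididymal adipose tissue, the fat pad beside the male epididymis, from mice of the WBB6F1 background, and its total RNA was hybridised to 17 Illumina bead arrays. The 3 genotypes are called here by their alleles. The wild type was Cpa3+/+. Mice of the Cpa3Cre/+ genotype carried a Cre knock-in at 1 copy of the mast cell protease gene Cpa3, a genotype known to lack mast cells, and KitW/Wv mice carried a pair of mutant alleles of the receptor gene Kit, which affect mast cells and other blood cell lineages. Mice received a high-fat diet, HFD, with 60% of its energy as fat, or the control diet that the sample names call LFD and the feeding protocol calls chow (6% fat). Feeding lasted 12 weeks and ended with a fast of 5 h. The Cpa3+/+ HFD group held 2 arrays and each of the other 5 groups held 3. Age and the number of animals behind each array were not stated, and the p-values therefore reflect the spread among these samples, which may be technical.

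Fatty acids enter the mitochondrion as carnitine esters, and the beta-oxidation spiral then removes acetyl-CoA through a dehydrogenase, a hydratase, a further dehydrogenase and a thiolase. Electrons from the acyl-CoA dehydrogenases pass through the electron transfer flavoprotein to the respiratory chain, and auxiliary isomerases and reductases deal with double bonds. Peroxisomes run a parallel spiral for very long and branched chains, which starts with an oxidase. White adipose tissue mainly stores fat and burns less of it than brown fat, liver or muscle.

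Some arrays carried markers of other tissues, and these values are given beside the results they touch. All 10 measured adipocyte markers were detected on every array, and the log2 intensity of Adipoq, the adipokine adiponectin, lay between 13.58 and 14.02. Cpa3 lay between 7.32 and 8.54 on the 5 Cpa3+/+ arrays and between 4.09 and 5.21 on the 12 others, where it was detected on a single Cpa3Cre/+ HFD array. As the mean log2 deviation of a marker list from its average over all arrays, epididymis and testis markers reached 3.55 on Cpa3+/+ LFD array 3, skeletal muscle markers 1.83 on KitW/Wv HFD array 1, and mesothelial markers 1.32 and muscle markers 0.80 on Cpa3Cre/+ LFD array 2. The median deposited intensity per array was 98.6 to 107, and 46.9% to 51.7% of probes were detected. Within groups, the correlation across genes was 0.94 to 0.99 over 16 pairs of arrays. With so few arrays, precision is limited throughout.

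Of the 34 genes, 6 passed the threshold in at least 1 comparison of groups, namely Eci3, Ivd, Cpt1b, Acaa1b, Eci1 and Ehhadh. The promoters of the 3 enzymes with the clearest diet responses for which RefSeq start sites were at hand are shown to set them beside their sister genes. Each run is the 250 bases upstream of a start site in RefSeq annotation of GRCm38.p6, written 5′ to 3′ on the gene's strand, with each CCAAT box in capitals, as CCAAT or, on the reverse strand, as ATTGG. Eci3 and Eci2 are neighbours on chromosome 13, and Acaa1a and Acaa1b lie on chromosome 9. The Eci2 and Acaa1a windows lie inside the whole span annotated for the gene. Those of Eci3 and Ivd overlap that span in part, and that of Acaa1b lies just outside it.
Eci3, chr13:34963810-34964059, minus strand: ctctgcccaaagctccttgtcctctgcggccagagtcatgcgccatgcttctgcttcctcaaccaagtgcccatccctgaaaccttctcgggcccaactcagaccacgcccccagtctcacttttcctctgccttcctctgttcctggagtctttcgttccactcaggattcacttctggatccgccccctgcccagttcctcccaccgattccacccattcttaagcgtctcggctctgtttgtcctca
Eci2, chr13:34994145-34994394, minus strand: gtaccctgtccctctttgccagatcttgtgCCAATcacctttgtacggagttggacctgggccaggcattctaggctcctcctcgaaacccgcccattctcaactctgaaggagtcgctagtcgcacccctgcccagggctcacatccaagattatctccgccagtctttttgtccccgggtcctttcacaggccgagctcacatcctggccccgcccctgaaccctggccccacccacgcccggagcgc
Acaa1b, chr9:119157094-119157343, minus strand: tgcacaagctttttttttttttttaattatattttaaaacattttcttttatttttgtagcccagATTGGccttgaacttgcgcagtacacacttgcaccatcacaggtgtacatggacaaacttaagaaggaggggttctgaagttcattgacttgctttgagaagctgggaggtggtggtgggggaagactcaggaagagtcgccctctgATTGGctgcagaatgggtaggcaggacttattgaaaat
Acaa1a, chr9:119341044-119341293, plus strand: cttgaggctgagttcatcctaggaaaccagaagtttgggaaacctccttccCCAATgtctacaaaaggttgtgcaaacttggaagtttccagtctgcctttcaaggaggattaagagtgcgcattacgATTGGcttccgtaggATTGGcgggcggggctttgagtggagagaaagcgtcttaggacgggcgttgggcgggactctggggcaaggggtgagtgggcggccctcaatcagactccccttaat
Ivd, chr2:118861744-118861993, plus strand: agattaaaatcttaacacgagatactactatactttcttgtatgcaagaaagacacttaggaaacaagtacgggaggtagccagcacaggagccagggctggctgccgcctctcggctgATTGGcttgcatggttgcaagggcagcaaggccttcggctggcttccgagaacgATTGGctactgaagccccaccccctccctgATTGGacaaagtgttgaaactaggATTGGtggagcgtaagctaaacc

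The Eci3 window held 0 CCAAT boxes and that of its sister Eci2 held 1. The Acaa1b window held 2, at 185 and 38 bases upstream of the start, and that of Acaa1a held 3. Ivd had 4 in its window, all on the reverse strand, at 131, 77, 47 and 23 bases upstream. Of the 30 oxidation genes with a RefSeq window, 16 (53.3%) held CCAAT on either strand, against 37.5% of 27025 genes. AGGTCA, the core hexamer that nuclear receptors recognise, was in the windows of 3 of 30 oxidation genes (10%; Cpt1a, Acadvl and Acadm), against 15.8% of all genes, on either strand. Its direct repeat with 1 free base between the copies was in 0 of 30 and in 0.0407% of all genes. These are matches of letters in short windows and say nothing of binding.

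The first question was how the diet changed the pathway in each genotype. In Cpa3+/+ mice, 3 of 34 oxidation genes passed the threshold on HFD against LFD, with Cpt1b higher and Eci3 and Ivd lower (limma, Benjamini-Hochberg adjusted p below 0.05 over all genes). Of all 17166 genes, 4.65% passed in that comparison, 3.44% higher and 1.21% lower. In Cpa3Cre/+ mice, 4 of 34 passed, the 3 above in the same directions and Acaa1b higher, against 9.1% of all genes, 5.88% higher and 3.22% lower. In KitW/Wv mice, 0 of 34 passed, where 0.00583% of all genes did. At an unadjusted p below 0.05 the KitW/Wv comparison held 2 of the 34 genes and 583 of all genes. Calls this few do not set the oxidation genes apart from all genes. With median scaling 3 were higher and 2 lower in Cpa3+/+, and 3 higher and 2 lower in Cpa3Cre/+. Of all genes, 3.52% were then higher and 0.816% lower in Cpa3+/+, and 9.05% and 1.39% in Cpa3Cre/+.

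Most other oxidation genes did not pass a diet comparison, and members without a call went both ways. The median log2 fold change of the 34 genes was 0.07 in Cpa3+/+, -0.08 in Cpa3Cre/+ and 0.12 in KitW/Wv, where the median of all genes was -0.02, -0.02 and 0. With median scaling in place of quantile normalization the Cpa3Cre/+ median was 0.18 and that of all genes 0.09, so no direction can be given for the list there. The 95% confidence interval lay within 2-fold either way for 22 of 34 genes in Cpa3+/+, 21 in Cpa3Cre/+ and 28 in KitW/Wv. Groups did not overlap for 12 genes in Cpa3+/+, 7 in Cpa3Cre/+ and 7 in KitW/Wv, where 33.5%, 24.1% and 9.9% of all genes did not overlap.

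**Figure D1:**
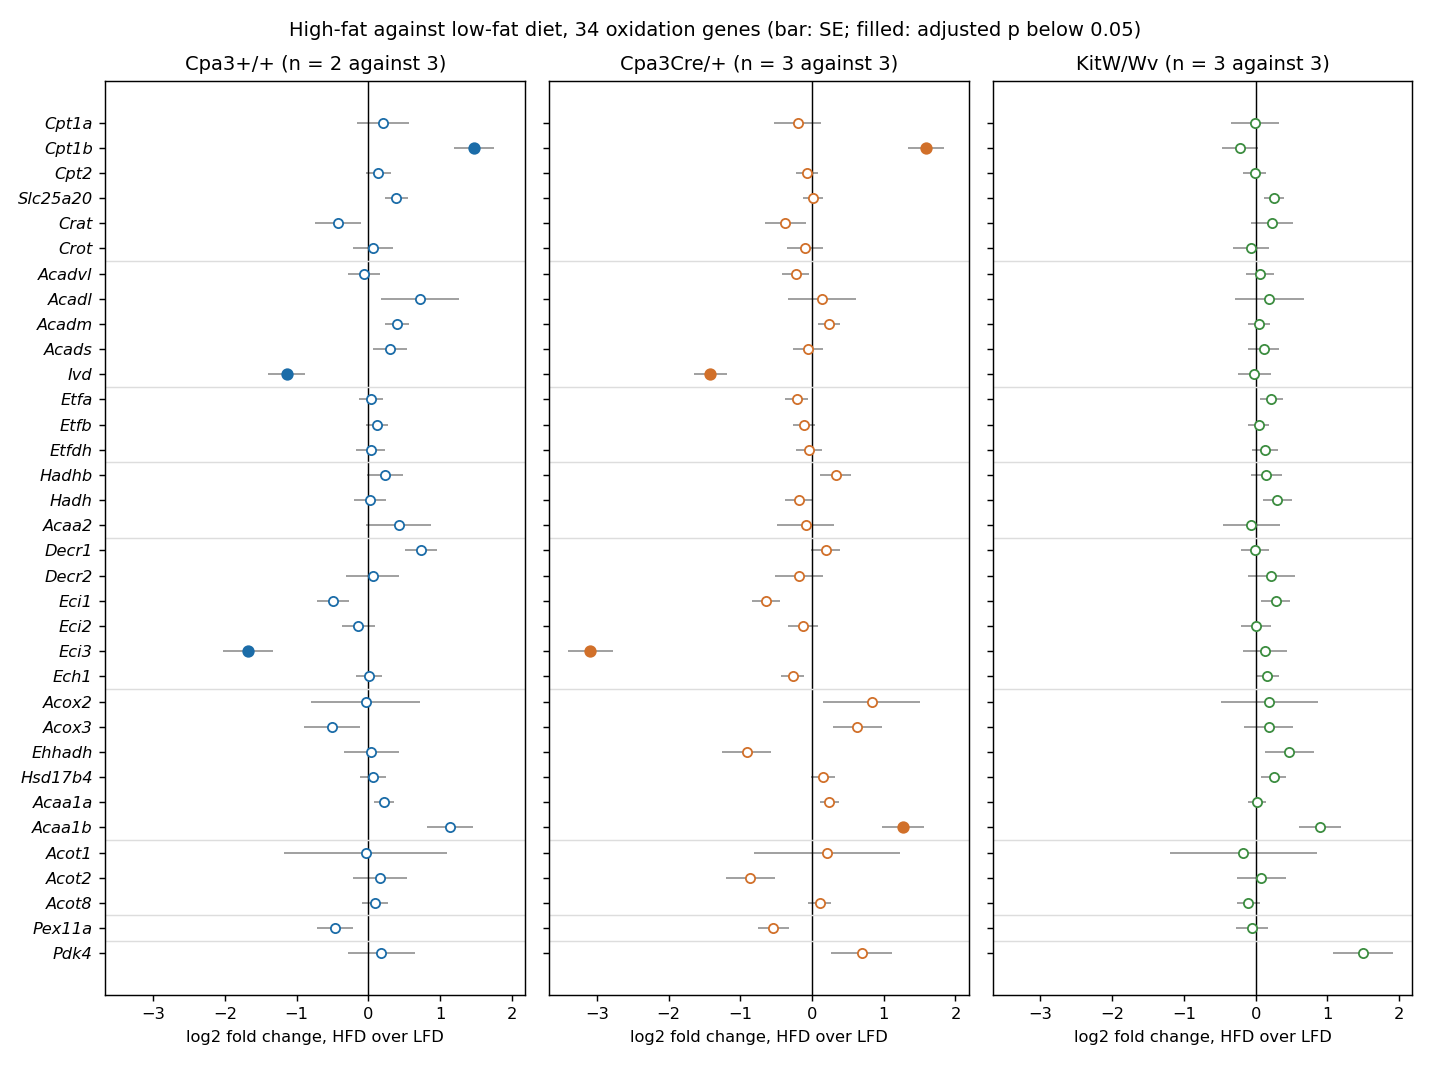
Log2 fold change of HFD over LFD for the 34 measured oxidation genes, in a panel for each genotype, with genes grouped by role; points are estimates from the linear model, bars are 1 SE, and filled points passed an adjusted p of 0.05. Filled points are Cpt1b, Ivd and Eci3 in Cpa3+/+, these and Acaa1b in Cpa3Cre/+, and none in KitW/Wv, where the highest point is Pdk4 at 1.5.

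The carnitine shuttle carries long-chain acyl groups into mitochondria, and Cpt1b encodes its rate-setting carnitine palmitoyltransferase of the muscle type. Its log2 intensity was 5.63, 4.87 and 4.98 on the Cpa3+/+ LFD arrays and 6.48 and 6.79 on the Cpa3+/+ HFD arrays. In Cpa3Cre/+ it was 5.01, 4.71 and 5.02 on LFD and 6.65, 6.32 and 6.53 on HFD. In KitW/Wv it was 5.25, 5.03 and 5.09 on LFD and 4.99, 5.41 and 4.32 on HFD, the last of which was not detected. Every HFD array of Cpa3+/+ and Cpa3Cre/+ thus lay above every other array, and the KitW/Wv diets overlapped. The rise was 2.78-fold in Cpa3+/+ (log2 1.47, SE 0.28, limma adjusted p = 0.00682, n = 2 against 3) and 3.00-fold in Cpa3Cre/+ (1.59, SE 0.25, adjusted p = 0.000804, n = 3 against 3). In KitW/Wv the difference was -0.22 (SE 0.25, adjusted p = 1). Cpt1b was dim. Its deposited non-normalized intensity was 166 to 206 on the HFD arrays of Cpa3+/+ and Cpa3Cre/+ and 100 to 134 on all others. The median of all probes per array was 98.6 to 107, so the size of its fold changes depends on the background correction. The other probe of Cpt1b, detected on 7 arrays, gave 0.66, 0.83 and 0.08. Without Cpa3+/+ HFD array 2 the Cpa3+/+ rise did not pass.

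Cpt1b is also a gene of skeletal muscle and brown fat, so the markers of those tissues belong beside it. The brown or beige list (7 of 7 measured) stood at 0.91 to 0.92 on the Cpa3+/+ HFD arrays and 0.39 to 0.72 on the Cpa3Cre/+ HFD arrays, and between -0.78 and 0.09 on all others. Ucp1, the uncoupling protein that defines brown fat, was detected on all 5 of those HFD arrays, at 4.65 to 6.24, and on KitW/Wv HFD array 2 at 5.75. On that KitW/Wv array Cpt1b was 5.41. Otop1, a proton channel gene of the list, rose by 2.97 in Cpa3+/+ and 2.69 in Cpa3Cre/+ (adjusted p = 6.12e-05 and 1.52e-05), and it was the only 1 of the 7 genes to pass. Muscle markers (14 of 16 measured) lay between -0.35 and 0.04 on the 5 HFD arrays and at 1.83 on KitW/Wv HFD array 1, where Cpt1b was 4.99. Pvalb, the calcium buffer parvalbumin, was the only muscle marker past the threshold, by 3.25 in Cpa3+/+ and 2.80 in Cpa3Cre/+ (adjusted p = 0.0471 and 0.0362). The part of brown-type cells in the Cpt1b result was not tested.

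The other shuttle genes stayed below the threshold in all 3 genotypes. Cpt2, the inner membrane palmitoyltransferase, spanned 11.21 to 11.91 over all 17 arrays and changed by 0.14, -0.07 and -0.01 in Cpa3+/+, Cpa3Cre/+ and KitW/Wv. Slc25a20, the carnitine-acylcarnitine translocase, gave 0.39, 0.02 and 0.25, and Crat, the carnitine acetyltransferase, -0.42, -0.37 and 0.23. A dimmer Slc25a20 probe, detected on every array, gave 0.93, -0.44 and 0.17. Cpt1a, the liver type of the palmitoyltransferase, and Crot, the peroxisomal carnitine octanoyltransferase, were each detected on 4 of 17 arrays, so that most of their values are bounds set by background.

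Acyl-CoA dehydrogenases open each turn of the mitochondrial spiral, and Ivd was the member of that family that changed. Ivd encodes isovaleryl-CoA dehydrogenase, which acts on a short branched chain in leucine breakdown. Its log2 intensity was 12.14, 12.14 and 11.65 on Cpa3+/+ LFD arrays and 10.65 and 11.03 on HFD. In Cpa3Cre/+ it was 11.85, 11.32 and 12.21 on LFD and 10.28, 10.14 and 10.70 on HFD. In KitW/Wv it was 11.98, 11.91 and 11.62 on LFD and 11.63, 11.83 and 11.99 on HFD. The 5 HFD arrays of Cpa3+/+ and Cpa3Cre/+ were the lowest of the 17, and the KitW/Wv diets overlapped. Ivd fell 2.20-fold in Cpa3+/+ (log2 -1.14, SE 0.26, adjusted p = 0.0207) and 2.68-fold in Cpa3Cre/+ (-1.42, SE 0.23, adjusted p = 0.00111). KitW/Wv gave -0.02 (SE 0.23). The other Ivd probe, dim and detected on 11 arrays, did not fall, with 0.29 in Cpa3+/+ and 0.04 in Cpa3Cre/+. With the mean of both probes the Cpa3+/+ change was -0.42 (adjusted p = 0.327). The Cpa3+/+ fall also missed the threshold without any 1 of 4 of its 5 arrays, the exception being LFD array 3.

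The straight-chain dehydrogenases did not pass in any genotype. Acadvl, for very long chains, changed by -0.06, -0.23 and 0.06 in Cpa3+/+, Cpa3Cre/+ and KitW/Wv, Acadm, for medium chains, by 0.40, 0.24 and 0.05, and Acads, for short chains, by 0.30, -0.06 and 0.11. Acadl, for long chains, was uneven within groups, from 6.89 on Cpa3Cre/+ HFD array 2 to 9.10 on KitW/Wv HFD array 3. Its neighbours in the Cpa3Cre/+ HFD group were 8.85 and 9.09, so its difference of 0.14 there had an SE of 0.48. Acaa2, the mitochondrial thiolase, was low on the same array, at 8.93 against 10.42 and 10.58. Cpa3Cre/+ HFD array 2 was also the lowest of all arrays for Ivd, Etfdh, Decr2, Eci1, Eci2, Eci3, Ech1 and Acot2, and the highest for Acox3. The mean log2 deviation of the oxidation genes was lowest there, at -0.23. The electron acceptors Etfa, Etfb and Etfdh spanned at most 0.70 over all arrays, and their diet differences lay between -0.21 and 0.22. Hadhb, the beta subunit of the trifunctional protein, gave 0.23, 0.33 and 0.15, and Hadh, the dehydrogenase for shorter chains, 0.02, -0.18 and 0.30.

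**Figure D2:**
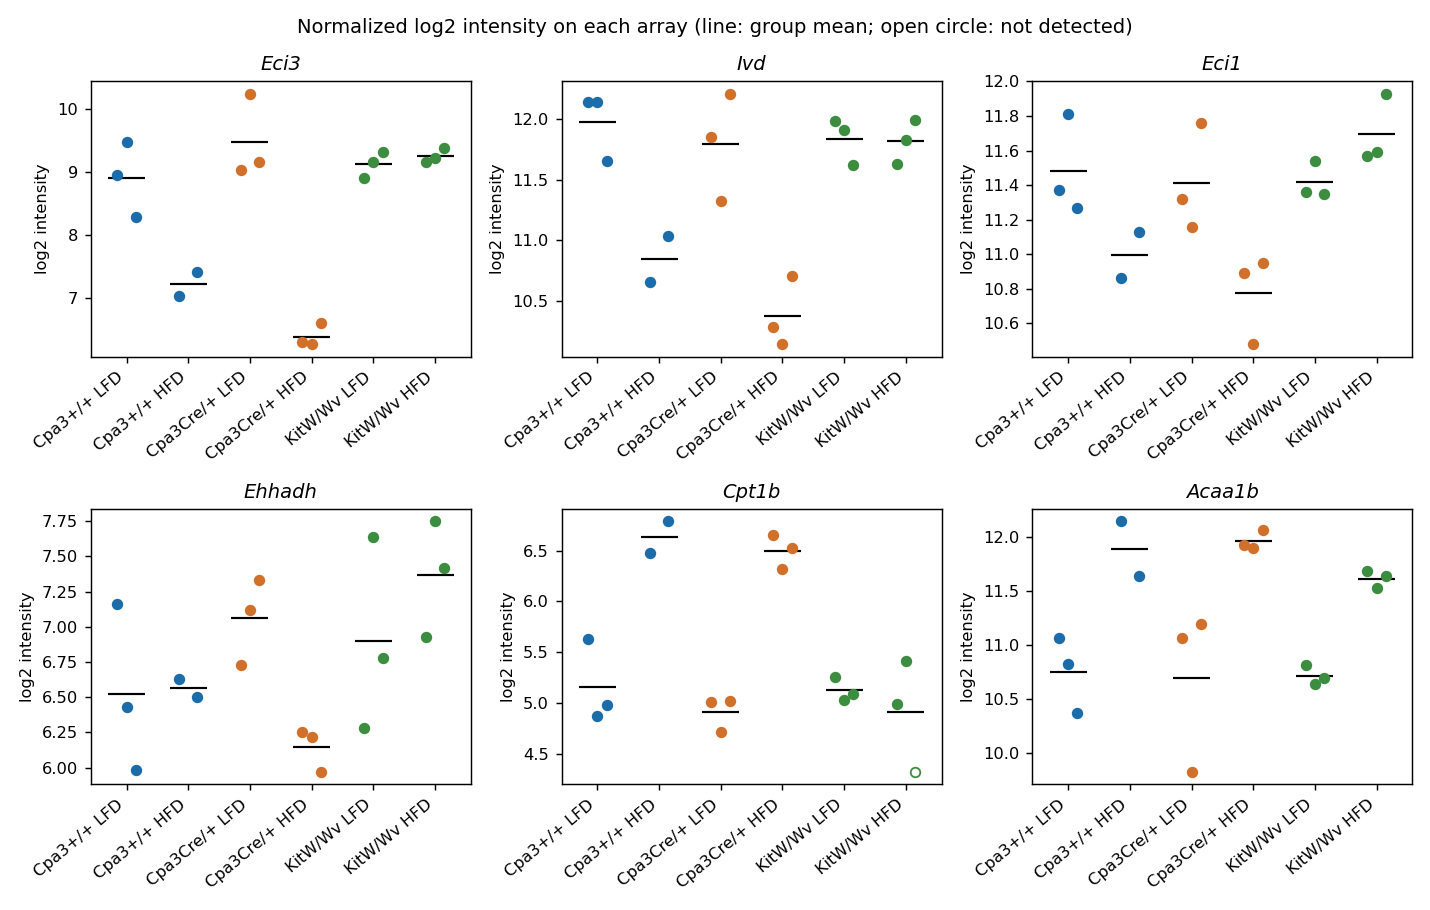
Normalized log2 intensity on each array of the 6 oxidation genes that passed the threshold in a comparison of groups, by genotype and diet; lines are group means and the open circle is an array without detection. Eci3, Ivd and Eci1 sit lowest in the HFD groups of Cpa3+/+ and Cpa3Cre/+, Cpt1b sits highest there, and Acaa1b is higher on HFD in each genotype.

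The widest diet response belonged to a double bond enzyme. Eci3 encodes an enoyl-CoA delta isomerase, which shifts the double bonds of unsaturated acyl chains to the position that the spiral can use. Its log2 intensity was 8.95, 9.47 and 8.28 on Cpa3+/+ LFD arrays and 7.03 and 7.41 on HFD. In Cpa3Cre/+ it was 9.02, 10.24 and 9.15 on LFD and 6.29, 6.26 and 6.59 on HFD. In KitW/Wv it was 8.90, 9.16 and 9.31 on LFD and 9.16, 9.21 and 9.38 on HFD. The Cpa3Cre/+ HFD arrays were the lowest, the Cpa3+/+ HFD arrays came next, and the KitW/Wv arrays on HFD lay with the LFD arrays. Eci3 fell 3.20-fold in Cpa3+/+ (log2 -1.68, SE 0.35, adjusted p = 0.0119) and 8.52-fold in Cpa3Cre/+ (-3.09, SE 0.31, adjusted p = 1.56e-05). In KitW/Wv it changed by 0.13 (95% confidence interval -0.54 to 0.79). The gap between the falls in Cpa3Cre/+ and Cpa3+/+ was -1.41 (SE 0.47, adjusted p = 0.998, unadjusted p = 0.00875), so a deeper fall in Cpa3Cre/+ was not shown. The Cpa3+/+ fall did not pass without either of its HFD arrays.

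Eci2 is the neighbouring peroxisomal isomerase gene of the same family as Eci3, and the ability of each array probe to tell them apart was not checked. Eci2 changed by -0.14, -0.13 and 0.01 in Cpa3+/+, Cpa3Cre/+ and KitW/Wv, over a range of 9.14 to 10.03 on all arrays. Eci1, the mitochondrial isomerase, was 11.37, 11.81 and 11.27 on Cpa3+/+ LFD and 10.86 and 11.13 on HFD, and 11.32, 11.16 and 11.76 on Cpa3Cre/+ LFD and 10.89, 10.48 and 10.95 on HFD. The diets did not overlap in either genotype, but the differences of -0.49 and -0.64 missed the threshold (adjusted p = 0.278 and 0.0629). Ech1, a dienoyl-CoA isomerase, gave 0.01, -0.27 and 0.16. Decr1, the mitochondrial dienoyl-CoA reductase, gave 0.73 in Cpa3+/+ (SE 0.22, adjusted p = 0.0824) and 0.19 and -0.01 in the other genotypes. Its peroxisomal counterpart Decr2 gave 0.06, -0.18 and 0.22, and the other Decr2 probe, detected on 16 arrays, 0.89, -0.3 and -0.18.

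Of the peroxisomal spiral, Acaa1b, a thiolase that carries out the last step, was the gene that changed with the diet. Its log2 intensity was 11.07, 10.83 and 10.37 on Cpa3+/+ LFD arrays and 12.15 and 11.64 on HFD. In Cpa3Cre/+ it was 11.07, 9.83 and 11.20 on LFD and 11.93, 11.90 and 12.07 on HFD. In KitW/Wv it was 10.82, 10.64 and 10.70 on LFD and 11.69, 11.53 and 11.64 on HFD. All HFD arrays lay above all LFD arrays, whatever the genotype. The rise of 2.41-fold in Cpa3Cre/+ passed the threshold (log2 1.27, SE 0.29, adjusted p = 0.0121). The values of 1.14 in Cpa3+/+ (SE 0.32, adjusted p = 0.0621) and 0.90 in KitW/Wv (SE 0.29, adjusted p = 1, unadjusted p = 0.00747) did not. No interaction was found for Acaa1b, with differences between genotypes of 0.13, -0.24 and -0.37 (adjusted p = 0.998, 0.889 and 0.802). Its sister thiolase Acaa1a gave 0.22, 0.24 and 0.02, and probe overlap between the pair was not checked.

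The other peroxisomal enzymes did not pass. Ehhadh, which joins hydratase and dehydrogenase activities, was 6.73, 7.12 and 7.33 on Cpa3Cre/+ LFD and 6.25, 6.22 and 5.97 on HFD, a difference of -0.91 (SE 0.34, adjusted p = 0.121). Hsd17b4, the second such enzyme, gave 0.07, 0.15 and 0.25 in Cpa3+/+, Cpa3Cre/+ and KitW/Wv. The branched-chain oxidases Acox2 and Acox3 scattered within groups, Acox2 from 4.45 to 7.78 over all arrays, and gave -0.04, 0.83 and 0.19 and -0.51, 0.63 and 0.18. Pex11a, which takes part in peroxisome division, gave -0.46, -0.54 and -0.05.

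Acyl-CoA thioesterases release free fatty acids from CoA. Acot1, the cytosolic form, was at 10.85 on Cpa3+/+ LFD array 3 and 10.32 on Cpa3Cre/+ LFD array 2, and between 5.97 and 8.60 on the other 15 arrays. The former is the array with epididymis and testis markers at 3.55 and the latter that with mesothelial markers at 1.32. The part of other tissues in these Acot1 values was not tested. Its diet differences were -0.04, 0.21 and -0.17, with SEs of 1.02 to 1.14. Acot2, its mitochondrial sister, gave 0.16, -0.86 and 0.08, and the peroxisomal Acot8 gave 0.09, 0.11 and -0.10.

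Pdk4 encodes a kinase that shuts pyruvate dehydrogenase and so favours fatty acids as fuel. In KitW/Wv it was 8.90, 9.39 and 9.88 on LFD and 10.76, 11.38 and 10.53 on HFD, without overlap. In Cpa3+/+ it was 11.25, 10.38 and 9.89 on LFD and 10.62 and 10.76 on HFD, and in Cpa3Cre/+ 11.15, 9.39 and 10.37 on LFD and 11.04, 11.33 and 10.60 on HFD. The KitW/Wv difference of 1.5 (SE 0.42) had an unadjusted p of 0.00327 but an adjusted p of 1, while Cpa3+/+ gave 0.18 and Cpa3Cre/+ 0.69. The other Pdk4 probe, detected on 12 arrays, gave -0.46 in KitW/Wv.

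The next question was whether the genotypes differed on the same diet. On LFD, limma called 0 of 34 oxidation genes in each of the 3 pairs of genotypes. Among all genes, 0.035% passed for Cpa3Cre/+ against Cpa3+/+, 0.0466% for KitW/Wv against Cpa3+/+, and 0% for KitW/Wv against Cpa3Cre/+. At an unadjusted p below 0.05 the numbers of oxidation genes were 0, 1 and 1, and those of all 17166 genes 595, 887 and 773. Groups did not overlap for 0, 1 and 1 of the 34 genes, and for 6.01%, 8.48% and 8.55% of all genes. On HFD, 0 of 34 passed for Cpa3Cre/+ against Cpa3+/+, where 0.0408% of all genes passed. An unadjusted p below 0.05 was found for 3 oxidation genes and for 834 of all genes. The median of the 34 genes was -0.19, and -0.01 with median scaling, which moved the median of all genes from 0.02 to 0.12. Groups did not overlap for 10 of the 34, and for 25.5% of all genes.

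On HFD, single oxidation genes differed between KitW/Wv and each of the other genotypes. Against Cpa3+/+, 2 of 34 oxidation genes passed, where 2.36% of all genes did, 0.594% higher and 1.77% lower. Eci3 was 4.08-fold higher (log2 2.03, SE 0.35, adjusted p = 0.00641, n = 3 against 2) and Cpt1b 3.31-fold lower (-1.72, SE 0.28, adjusted p = 0.00515). Ivd was 0.98 higher (SE 0.26, adjusted p = 0.0675). Eci3 did not pass without either Cpa3+/+ HFD array, nor Cpt1b without array 2 of that group.

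Against Cpa3Cre/+ on HFD, 5 of 34 passed, 4 higher and 1 lower, where 7.85% of all genes passed, 2.99% higher and 4.86% lower. Eci3 was 7.31-fold higher (log2 2.87, SE 0.31, adjusted p = 7.83e-05), Ivd 2.73-fold higher (1.45, SE 0.23, adjusted p = 0.00144), and Cpt1b 3.02-fold lower (-1.60, SE 0.25, adjusted p = 0.00121). The other Ivd probe gave 0.06. Eci1 was 11.57, 11.59 and 11.93 in KitW/Wv, above the 10.89, 10.48 and 10.95 of Cpa3Cre/+, a difference of 0.93 (SE 0.20, adjusted p = 0.0105). Ehhadh was 6.93, 7.75 and 7.42 in KitW/Wv against 6.25, 6.22 and 5.97, a difference of 1.22 (SE 0.34, adjusted p = 0.0391). Ehhadh no longer passed without any 1 of 5 of the 6 arrays, and Eci1 without Cpa3Cre/+ HFD array 2 or KitW/Wv HFD array 3. Acot2 was 1.10 higher (SE 0.34, adjusted p = 0.0667), but its other probes, detected on 17 and 7 arrays, gave 0.3 and -0.09. With median scaling 3 were higher and 2 lower, where 1.53% of all genes were higher and 7.79% lower. The median of the 34 genes was then -0.07 in place of 0.18. These genotype comparisons share their HFD arrays with the diet comparisons above and are no separate evidence. Groups did not overlap for 13 genes against Cpa3+/+ and 16 against Cpa3Cre/+, where 37.7% and 29% of all genes did not overlap.

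**Figure D3:**
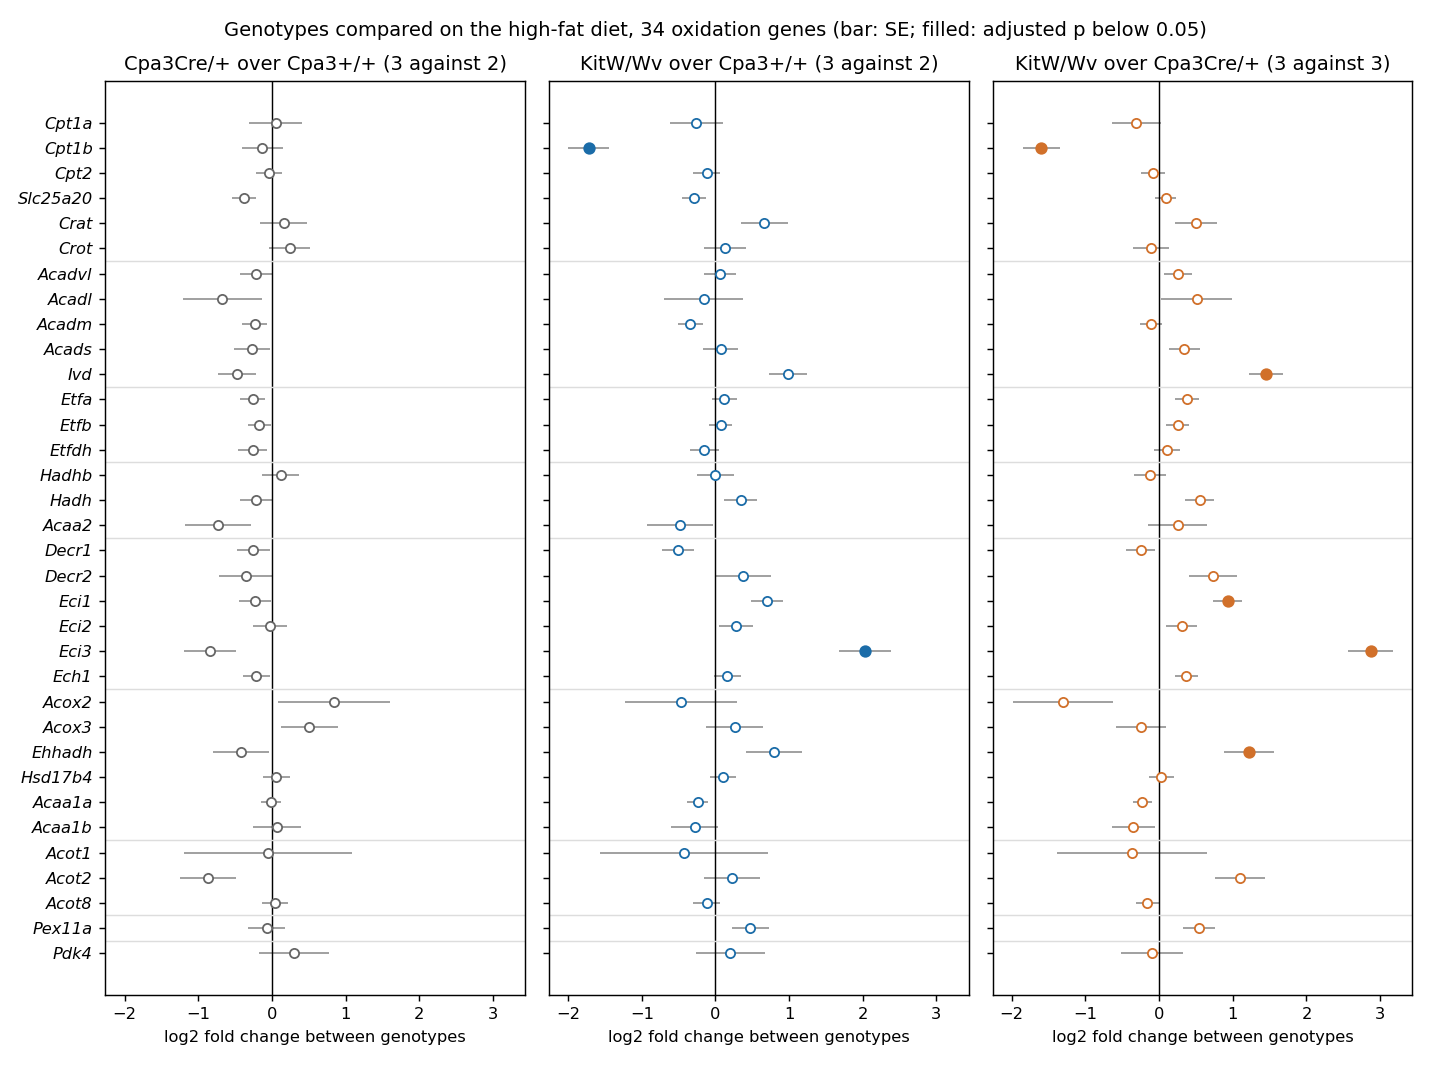
Log2 fold change between genotypes on HFD for the 34 oxidation genes; points are estimates from the linear model, bars are 1 SE, and filled points passed an adjusted p of 0.05. No gene is filled for Cpa3Cre/+ over Cpa3+/+, Eci3 and Cpt1b are filled for KitW/Wv over Cpa3+/+, and Eci3, Ivd, Eci1, Ehhadh and Cpt1b for KitW/Wv over Cpa3Cre/+.

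The difference between diet effects was tested as an interaction of diet and genotype. Between KitW/Wv and Cpa3Cre/+ it passed for 3 of 34 oxidation genes, 2 positive and 1 negative, where 2.54% of all genes passed, 0.449% positive and 2.09% negative. The diet effect in KitW/Wv minus that in Cpa3Cre/+ was 3.22 for Eci3 (SE 0.44, adjusted p = 0.00113), 1.41 for Ivd (SE 0.33, adjusted p = 0.0331) and -1.80 for Cpt1b (SE 0.35, adjusted p = 0.0114). With median scaling 1 was positive and 1 negative, and the share of all genes was not computed for that setting. The Ivd value was -0.27 with its other probe, and it missed the threshold without any 1 of 9 of the 12 arrays. Between KitW/Wv and Cpa3+/+, 0 of 34 passed in limma, where 0.885% of all genes did (0.0874% positive and 0.798% negative). An unadjusted p below 0.05 was found for 5 oxidation genes and for 2030 of all 17166 genes. Among these 5, Cpt1b gave -1.69 (adjusted p = 0.0516), Eci3 1.80 (0.103) and Ivd 1.12 (0.188). Between Cpa3Cre/+ and Cpa3+/+, 0 of 34 oxidation genes and 0% of all genes passed in limma. An unadjusted p below 0.05 was found for 2 oxidation genes and for 686 of all genes.

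Macrophage markers were high on the same HFD arrays. Of the 10 macrophage markers, all measured, 7 rose in Cpa3+/+ and 9 in Cpa3Cre/+ on HFD, where 3.44% and 5.88% of all genes did. In KitW/Wv 0 passed, where only 0.00583% of all genes did. The macrophage list stood at 0.71 to 0.84 on Cpa3+/+ HFD and 1.09 to 1.23 on Cpa3Cre/+ HFD. It stood at -0.31 to -0.03 on KitW/Wv HFD and -0.91 to -0.25 on LFD. Lipid-associated macrophage markers (6 of 7 measured) stood at 1.73 to 1.79, 2.11 to 2.44 and -0.36 to 0.24 on HFD in the same order, and at -1.58 to -0.76 on LFD. Adipocyte markers (10 of 12 measured) stood at -0.16 to -0.15, -0.34 to -0.25 and -0.13 to 0.20 on HFD. On LFD they stood at -0.34 on Cpa3Cre/+ array 2 and at -0.01 to 0.34 on the other 8 arrays. Of these markers, 1 was higher and 1 lower on HFD in Cpa3+/+, 1 higher and 3 lower in Cpa3Cre/+, and 0 passed in KitW/Wv. The shares of all genes were 3.44% higher and 1.21% lower in Cpa3+/+, and 5.88% and 3.22% in Cpa3Cre/+. B cell markers (5 of 8 measured) were higher in KitW/Wv on HFD for 2 of 5 against Cpa3+/+ and 3 of 5 against Cpa3Cre/+. Of all genes, 0.594% and 2.99% were higher there. The B cell markers had medians of 1.68 and 1.70. Their level was 0.22 to 2.35 on KitW/Wv HFD, with 2.35 on array 1, and 0.07 to 1.19 on KitW/Wv LFD, against -0.80 to -0.14 on all Cpa3+/+ and Cpa3Cre/+ arrays. Of the T and NK cell markers (6 of 8 measured), 2 were higher in KitW/Wv than in Cpa3Cre/+ on HFD (2.99% of all genes). Against Cpa3+/+ 0 were higher (0.594%), and the list stood at -0.13 to 1.71 on KitW/Wv HFD. On Cpa3Cre/+ LFD array 2 Eci3 was 10.24, the highest of all. The oxidation genes as a list stayed between -0.23 and 0.18 on every array. The part of cell composition in Eci3, Ivd and Cpt1b was not tested, and in whole tissue fewer cells of a type cannot be told apart from less RNA per cell.

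**Figure D4:**
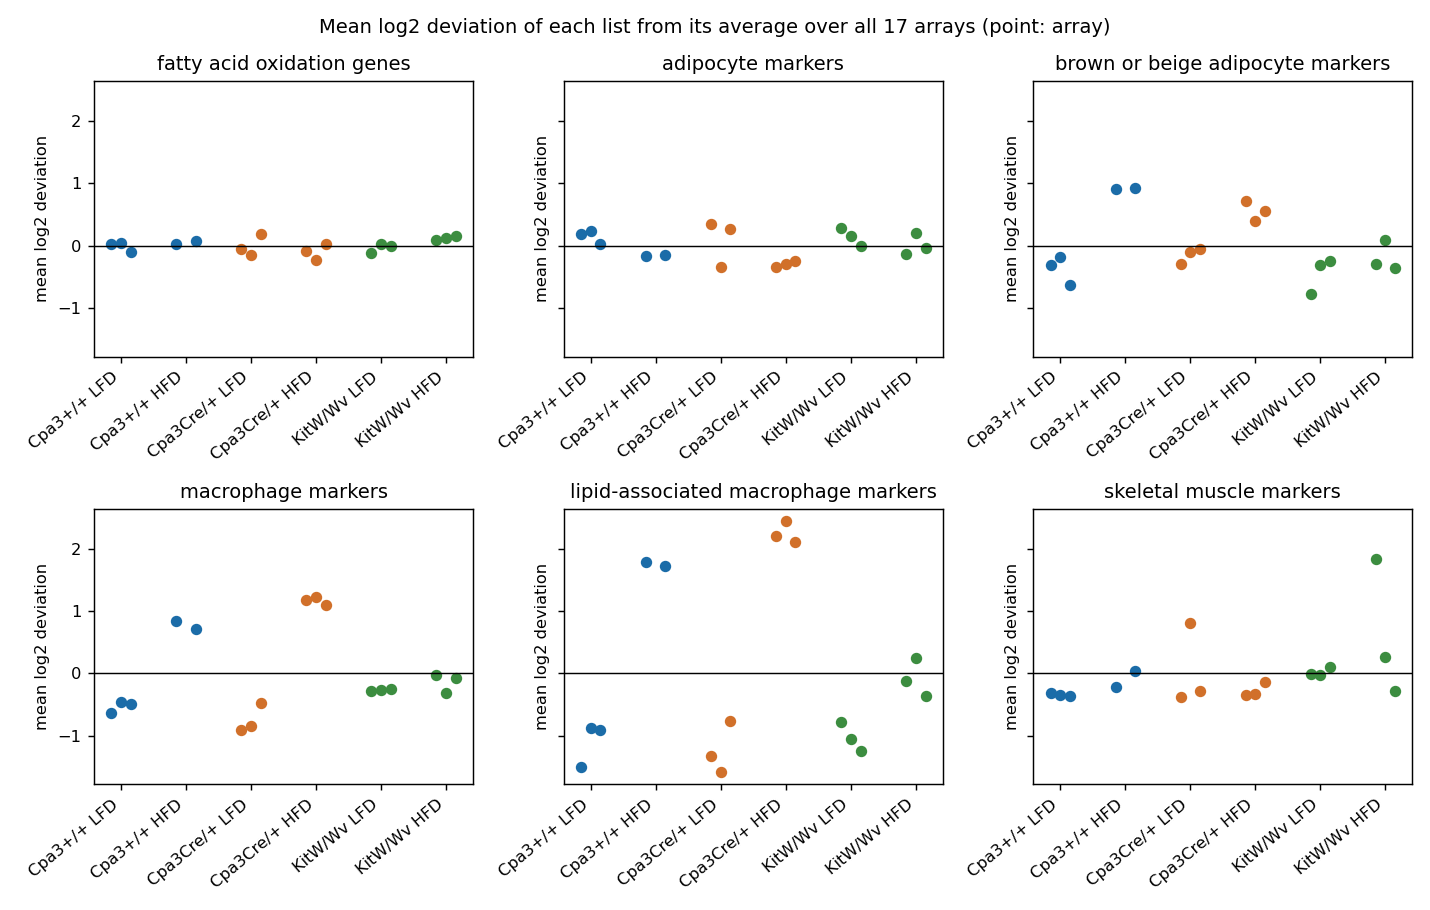
Mean log2 deviation from the 17-array average of the oxidation genes and of 5 marker lists on each array, by group, on a shared vertical axis. The oxidation genes stay between -0.23 and 0.18, while macrophage and lipid-associated macrophage markers are highest on the HFD arrays of Cpa3+/+ and Cpa3Cre/+ and muscle markers reach 1.83 on KitW/Wv HFD array 1.

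Pathways that feed or control oxidation were followed in 7 further lists of 108 genes, of which 96 were measured. On HFD, 1 of the 96 was higher and 7 lower in Cpa3+/+, where 3.44% of all genes were higher and 1.21% lower. In Cpa3Cre/+ 0 were higher and 17 lower, against 5.88% and 3.22% of all genes, and in KitW/Wv 0 passed, against 0.00583%. Their median log2 fold change was -0.17, -0.36 and -0.05. KitW/Wv against Cpa3Cre/+ on HFD had 18 higher and 1 lower, where 2.99% of all genes were higher and 4.86% lower, with a median of 0.34. Against Cpa3+/+ it had 2 higher and 1 lower (0.594% and 1.77% of all genes). The interaction of KitW/Wv and Cpa3Cre/+ passed for 5, all positive (0.449% of all genes).

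These counts depended on scaling, an alternative applied to the related lists after seeing the data. With median scaling they were 3 higher and 2 lower in Cpa3+/+, 3 and 9 in Cpa3Cre/+ (median -0.15), and 8 and 4 for KitW/Wv against Cpa3Cre/+ on HFD (median 0.14), and the interaction passed for 1. The shares of all genes also moved, to 3.52% higher and 0.816% lower in Cpa3+/+, 9.05% and 1.39% in Cpa3Cre/+, and 1.53% and 7.79% for KitW/Wv against Cpa3Cre/+ on HFD.

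Breakdown of branched-chain amino acids, the pathway to which Ivd belongs, had 15 measured genes. Of these, 1 was higher and 3 lower in Cpa3+/+ (3.44% and 1.21% of all genes), and 6 were lower in Cpa3Cre/+ (3.22%), against 1 higher and 1 lower, and 5 lower, with median scaling. Bcat2, the mitochondrial branched-chain aminotransferase, changed by -1.09 and -1.21 in Cpa3+/+ and Cpa3Cre/+ (adjusted p = 0.0275 and 0.00405). Aldh6a1, a dehydrogenase of valine breakdown, changed by -1.09 and -1.14 (0.0135 and 0.00259), and Acadsb, the short branched-chain acyl-CoA dehydrogenase, by -1 and -1.25 (0.0468 and 0.00385). Bcat2 and Acadsb missed the threshold in Cpa3+/+ with median scaling (adjusted p = 0.062 and 0.0718). Dbt, a subunit of the branched-chain ketoacid dehydrogenase, fell by 1.15 in Cpa3Cre/+ (0.00134). Bcat1, the cytosolic aminotransferase, went the other way, with 2.53 in Cpa3+/+ (0.0191). KitW/Wv against Cpa3Cre/+ on HFD had 6 higher (2.99% of all genes), among them Dbt at 1.2 and Aldh6a1 at 1.10, and Bcat1 lower at -2.11 (adjusted p = 0.00148, 0.0043 and 0.0197). With median scaling 2 were higher and 1 lower there.

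The diet calls of the other lists are read against 1.21% of all genes lower in Cpa3+/+ and 3.22% in Cpa3Cre/+. Of 9 measured genes of pyruvate dehydrogenase and its control, 1 was lower in Cpa3+/+ and 3 in Cpa3Cre/+, but with median scaling 0 passed in either genotype. Pdk3, another kinase of the complex, gave -0.91 and -0.72 (adjusted p = 0.017 and 0.02, and 0.0794 and 0.279 with median scaling). Pdk2 gave -1.04 in Cpa3Cre/+ (0.0171, and 0.0694 with median scaling). Pdk2 was 1.36 and 1.44 higher in KitW/Wv than in Cpa3+/+ and Cpa3Cre/+ on HFD (0.021 and 0.00271), where Pdk4 differed by 0.20 and -0.10, and it passed both with median scaling (0.0261 and 0.00881).

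Of 15 citric acid cycle genes, 1 and 2 were lower in Cpa3+/+ and Cpa3Cre/+, and with median scaling 1 was higher and 0 lower, and 1 higher and 1 lower. Suclg2, a succinyl-CoA ligase subunit, gave -0.85 and -1.24 (adjusted p = 0.0434 and 0.00103), and with median scaling only the Cpa3Cre/+ value passed (0.0717 and 0.00595). Of 20 other oxidation enzymes, 1 and 3 were lower, and with median scaling 1 was higher and 0 lower, and 1 higher and 1 lower. Hsd17b10, a mitochondrial dehydrogenase of isoleucine and fatty acid breakdown, gave -1.02 in Cpa3Cre/+ (0.0212, and 0.075 with median scaling). Pccb, a propionyl-CoA carboxylase subunit, gave -0.88 and -1 (0.0163 and 0.00165), and with median scaling only the Cpa3Cre/+ value passed (0.0653 and 0.0257).

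Of 16 peroxisome genes, 0 passed in Cpa3+/+ and 2 were lower in Cpa3Cre/+, where median scaling gave 1 higher and 1 lower. Pex3, which places membrane proteins in the peroxisome, fell by 0.84 in Cpa3Cre/+ (adjusted p = 0.00566, and 0.0329 with median scaling). Of 17 regulators, Prkaa1, a catalytic subunit of the energy sensor AMPK, was lower in both genotypes, at -0.99 and -0.84 (0.0425 and 0.034, and 0.0211 and 0.0323 with median scaling). None of the 4 measured ketone body genes passed a diet comparison with either scaling.

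**Figure D5:**
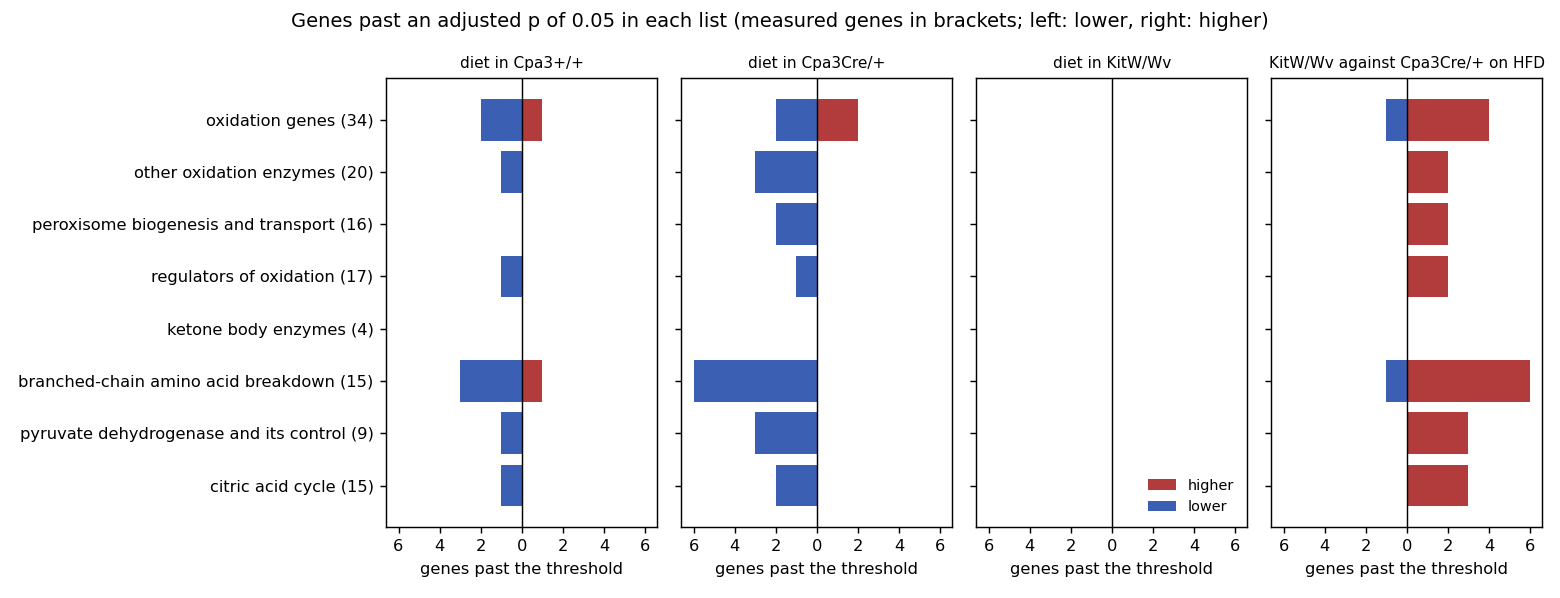
Number of genes past an adjusted p of 0.05 in the oxidation gene list and 7 related lists, with lower genes drawn to the left and higher genes to the right of 0, for the 3 diet comparisons and for KitW/Wv against Cpa3Cre/+ on HFD. Branched-chain amino acid breakdown has 6 lower genes on HFD in Cpa3Cre/+, and the KitW/Wv diet panel is empty; the counts are those of quantile normalization, and with median scaling the 7 related lists together had 9 lower and 3 higher genes in Cpa3Cre/+.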

How the data were processed

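Total RNA was measured on 17 bead arrays of 46237 probes. GenomeStudio is named in the submitters' processing notes, without a version. The non-normalized intensity that the authors deposited is linear, with no normalization between arrays, and per the file headers a detection p-value stands beside each intensity. The authors' deposited normalized intensity, by a method that is not stated, served as an alternative only.

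Background was estimated from intensities and detection p-values (neqc, offset 16), followed by quantile normalization to the log2 scale. A probe was kept if its detection p was below 0.05 on 2 or more arrays, and each gene was represented by its brightest probe on average. A linear model with 1 mean per group was fitted to all 17 arrays and 17166 genes with limma 3.58.1 (R 4.3.3), with 3.34 prior and 11 residual degrees of freedom, and p-values were adjusted by Benjamini-Hochberg. It was tested on simulated data. Confidence intervals are at 95%. All oxidation genes could be named, with values on every array for those past the threshold, and up to 4 genes of each other list were named by size in a comparison.

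The genes, lists and tests were chosen with earlier results of these data known. Sequences come from the RefSeq tables of GRCm38.p6, used otherwise for names. Probe sequences were not used. Of the 35 genes, 30 had a promoter window there. Figures used Python 3.11.15 and matplotlib 3.10.9. Alternatives were median scaling, no background correction, the deposited normalized values (floor 16), no filter or detection on 6 arrays, the mean of a gene's probes, only the groups compared, a replicate block, array weights, an adjusted p below 0.1, and leaving out arrays.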

Additional observations from a re-analysis of the deposited data

Results flagged for a closer look

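The response to the diet differed between KitW/Wv and Cpa3Cre/+ by a test of the difference itself for 3 oxidation genes (limma, 2.54% of all genes passed). The KitW/Wv minus Cpa3Cre/+ difference was 3.22 for Eci3 on the log2 scale, with Cpa3Cre/+ lower on HFD on 3 of 3 arrays. It was 1.41 for Ivd, where the dimmer probe gave -0.27, and -1.80 for Cpt1b, with Cpa3Cre/+ higher on HFD on 3 of 3 arrays. The part of the cell types whose markers moved with these groups was not tested.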

How the results depend on the processing

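Of 17 calls of single oxidation genes, none changed direction in any alternative. Median scaling lost 2 calls, the mean of a gene's probes 2, fitting only the groups compared 5, and the deposited normalized values and no filter on dim probes 1 each. No background correction, detection on 6 arrays, array weights and leaving out the 3 arrays with markers of other tissues lost 0. An adjusted p below 0.1 is the same fit with a looser threshold, so it could lose no call and is no check. For the diet in Cpa3+/+ (3 genes), median scaling gave 5, an adjusted p below 0.1 gave 5 and fitting only the groups compared gave 0, with fewer arrays in the fit. KitW/Wv against Cpa3+/+ on HFD (2 genes) gave 1 with only the groups compared and 4 with array weights. KitW/Wv against Cpa3Cre/+ on HFD (5 genes) gave 10 with array weights. The interaction of KitW/Wv and Cpa3+/+ (0 genes) gave 1 with no background correction, with the deposited normalized values, with detection on 6 arrays and with an adjusted p below 0.1, and 2 with array weights and without the 3 arrays. The cause of these moves was not tested. Shares of all genes passing under these settings, apart from median scaling, or without single arrays were not computed. The counts therefore have no background beside them and do not show a stronger or weaker result for the oxidation genes. Median scaling moved the all-gene median of the Cpa3Cre/+ minus Cpa3+/+ interaction from 0 to 0.11 and that of the diet in Cpa3Cre/+ from -0.02 to 0.09. Leaving out single arrays gave 0 to 3 genes for the diet in Cpa3+/+, 4 to 6 in Cpa3Cre/+ and 0 to 0 in KitW/Wv. It gave 0 to 2 for KitW/Wv against Cpa3+/+ and 3 to 5 against Cpa3Cre/+ on HFD, and 0 to 1 and 2 to 3 for the interactions of KitW/Wv with these genotypes. The diet in Cpa3+/+ gave 1 gene without Cpa3+/+ HFD array 1 and 0 without array 2, as did KitW/Wv against Cpa3+/+ on HFD, where the lone remaining array is assumed to vary like the other groups. KitW/Wv against Cpa3Cre/+ on HFD gave 3 without Cpa3Cre/+ HFD array 2 or KitW/Wv HFD array 3. The falls of Eci3 and Ivd and the rises of Cpt1b and Acaa1b in Cpa3Cre/+ passed without any single array.

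Whether the replicate numbers of the labels pair the samples was not settled. Same-numbered arrays of different groups correlated with a median r of 0.07 (-0.47 to 0.36, 40 pairs, 16 above 0.1). The median r was -0.03 for arrays with other numbers, and 9 of 17 arrays correlated best with their own number. With the replicate number as a block, 3, 4 and 5 genes passed for the diet in Cpa3+/+, the diet in Cpa3Cre/+ and KitW/Wv against Cpa3Cre/+ on HFD. The block lost 1 call, the interaction of Ivd (1.41, adjusted p = 0.0589). No headers give the chip of an array, so chip as a block was not run. Apart from the arrays numbered 3, all HFD samples come before all LFD samples in the deposited order. Among these, any effect of that order cannot be told apart from diet. Signal over background limits Cpt1a and Crot, and Cpt1b on all LFD and all KitW/Wv arrays.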
